A study of Mus musculus with 6 samples.

Results

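The open-side olfactory bulbs of 3 mice were described gene by gene as a reference for expression levels in this tissue and for how far they vary between animals. The members were the 3 libraries of the right bulb, from mice 1037, 1038 and 1039, out of 6 libraries in the series. They were chosen by their label alone. Outbred ICR mice had the left naris closed with a silica gel plug at postnatal day 30 and were perfused 60 days later, when the bulbs were dissected. The right bulb is the side whose naris was not plugged. It is therefore the bulb opposite the plug in an animal with a plug, and not a bulb from an untreated animal. The sex of the mice is not given in the labels. The 3 libraries of the left bulb were not used here, and no comparison between the sides was made. Polyadenylated RNA of the whole bulb was sequenced, so each value is a mixture of all its cells, and fewer cells of a type and less RNA per cell cannot be told apart.

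The olfactory bulb is the first relay of smell in the brain. Axons of the sensory neurons in the nose end in its glomeruli on the dendrites of mitral and tufted cells, which are glutamatergic and send the signal on to the olfactory cortex. Granule and periglomerular cells, which release GABA and in part dopamine, shape that signal, and many of them are replaced throughout life by neuroblasts that migrate in from the wall of the lateral ventricle.

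The libraries held 15590938, 15094558 and 14649911 counts over 22095 genes in right 1037, right 1038 and right 1039. Levels are given as CPM, the gene's counts divided by the library's total and put on the usual per-million scale, in that order of libraries where 3 values are listed, and as mean ± SD over the 3 mice. A count of 0 allows up to 0.192 to 0.205 CPM, the level of 3 counts, and this limit covers counting error only. Since a longer transcript gives more counts, an order of genes by CPM is an order by share of counts, and expression of different genes was compared as CPM per kilobase (kb) of exon. No library stood apart across genes. Over 13413 genes, which are not independent replicates, Pearson's r of log2 CPM between pairs of libraries was 0.992 to 0.993. The pairs differed by more than counting noise, with a chi-square of 4.96 to 5.63 per gene. The labels give each library as 1 mouse.

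The labelled tissue was checked against 6 markers of its cell types. Gad1 and Dlx1 mark GABAergic interneurons, Cdhr1 and Eomes mark mitral and tufted cells, Th marks dopaminergic periglomerular cells, and Omp marks mature sensory neurons. Gad1, which encodes an enzyme that makes GABA (chr2:70553072-70602014 in GRCm38), had 1899, 2052 and 1886 CPM. Dlx1, a homeobox factor of forebrain interneurons (chr2:71528113-71533981), had 304, 358 and 326 CPM. Right 1038 was highest for both genes. Cdhr1, a cadherin-related protein of mitral and tufted cells (chr14:37077857-37098347), had 769.7, 829.5 and 754 CPM, and Eomes, a T-box factor of the same cells (chr9:118478212-118486132), had 185, 206 and 205 CPM. Th, tyrosine hydroxylase, which limits the rate of dopamine synthesis (chr7:142892752-142931128), had 145, 164 and 132 CPM. Omp, the olfactory marker protein (chr7:98143359-98145502), had 134, 123 and 105 CPM. It was highest in right 1037 and lowest in right 1039. All 6 markers reached 100 CPM in all 3 libraries, a level that 11.1% of all genes of the table reached. Per kb of exon the order was Gad1 (255 ± 12.1), Cdhr1 (181 ± 9.23), Th (62.2 ± 6.73), Dlx1 (61.1 ± 5.03), Omp (56.3 ± 6.84) and Eomes (47.8 ± 2.75). From Th to Eomes the ranges of neighbouring genes overlapped. The value of Gad1 depends on the length used. It was 540.3 CPM per kb of its longest transcript.

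The stretch of 150 bases before the transcription start is shown for 5 of these markers and for S100a5, a calcium-binding protein of sensory axons, so that the DNA in front of the reference genes can be seen beside their levels. The sequences are from the RefSeq promoter table (GRCm38.p6). For Gad1, Dlx1 and Th the start in that table lies inside the gene span given above, so the stretch is before that start and not before the outermost end of the gene. Capitals mark CG dinucleotides in the first 5 sequences and the motif TGACGTCA in the last. In the order printed they are chr2:70561979-70562128 (plus strand), chr2:71529295-71529444 (plus), chr9:118478039-118478188 (plus), chr14:37098348-37098497 (minus), chr3:90608372-90608521 (plus) and chr7:142899996-142900145 (minus).
Gad1: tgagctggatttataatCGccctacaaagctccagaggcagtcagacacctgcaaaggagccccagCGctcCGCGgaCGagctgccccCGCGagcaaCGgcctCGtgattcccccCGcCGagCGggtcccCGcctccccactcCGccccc
Dlx1: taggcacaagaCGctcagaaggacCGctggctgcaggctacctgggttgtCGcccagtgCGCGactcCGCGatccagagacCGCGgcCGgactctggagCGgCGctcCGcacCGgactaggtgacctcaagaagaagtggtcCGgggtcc
Eomes: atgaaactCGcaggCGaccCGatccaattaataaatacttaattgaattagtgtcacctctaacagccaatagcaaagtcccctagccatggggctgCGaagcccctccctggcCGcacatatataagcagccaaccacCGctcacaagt
Cdhr1: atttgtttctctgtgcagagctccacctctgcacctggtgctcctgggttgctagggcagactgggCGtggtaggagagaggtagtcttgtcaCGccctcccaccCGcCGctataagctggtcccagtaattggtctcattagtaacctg
S100a5: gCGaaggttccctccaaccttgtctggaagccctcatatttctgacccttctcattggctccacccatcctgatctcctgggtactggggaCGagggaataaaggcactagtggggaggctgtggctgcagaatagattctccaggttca
Th: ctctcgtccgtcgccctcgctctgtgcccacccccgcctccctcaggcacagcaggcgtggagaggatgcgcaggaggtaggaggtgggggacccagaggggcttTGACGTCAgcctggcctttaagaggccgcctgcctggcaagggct

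Within the 250 bases before the start, Dlx1 held 22 CG dinucleotides, Gad1 17, Th 13, Eomes 8, Cdhr1 6 and S100a5 3. Over all 32851 promoters of the table the median was 6, with quartiles of 2 and 16. Gad1 and Dlx1 were thus above the upper quartile, and Th and Eomes lay between the median and the upper quartile. Cdhr1 was at the median, and S100a5 lay between the lower quartile and the median. The Th stretch held TGACGTCA, the palindromic cyclic AMP response element, 45 bases before the start. This motif was in 508 of all promoters (1.55%) in the 250 bases before the start, where it reads the same on both strands. It was in none of the other 5. TATAAA, searched on both strands, was in the same window of Gad1 and in 12.4% of all promoters. A match is a description of the letters only.

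The level of 1 CPM in all 3 libraries was reached by 13413 genes, or 60.7% of the table. At 10 CPM the number was 10098 (45.7%), at 100 CPM it was 2443 (11.1%) and at 1000 CPM it was 40 (0.181%). A count of 0 in all 3 libraries was found for 4624 genes (20.9%), and 637 genes (2.88%) reached 1 CPM in 1 or 2 libraries. The median of the detected genes, meaning those with 1 CPM in all 3 libraries, was 32.4 CPM, with quartiles of 11.4 and 77.5. The 10 genes with the most counts held 5.76% to 5.90% of each library, the first 100 genes held 15.1% to 15.2%, and the first 1000 held 44.8% to 45.0%. The 3 rank curves ran on top of each other over this range.

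**Figure D1:**
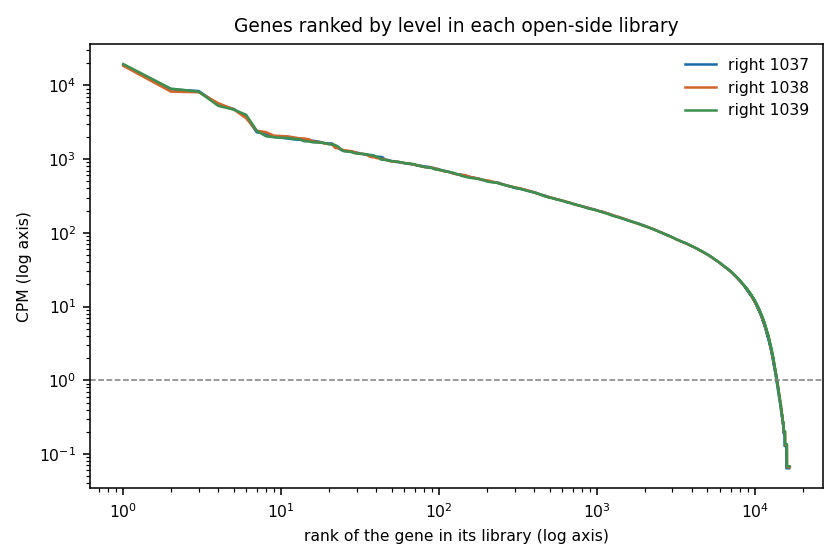
Level of each gene in CPM (vertical log axis) against its rank in the library (horizontal log axis), 1 line for each of the 3 open-side libraries, with genes at 0 left out. The lines lie on each other and cross 1 CPM, the dashed line, at ranks of 13676 to 13772.

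The highest counts came from genes of the mitochondrial genome, which code for subunits of the respiratory chain. The gene with the highest mean was mt-Co1, cytochrome c oxidase subunit I, with 18909, 18404 and 19448 CPM. It was followed by mt-Cytb (8702 ± 414 CPM), mt-Nd1 (8224 ± 157), mt-Nd2 (5498 ± 230.2), mt-Nd5 (4739.7 ± 43.9) and mt-Nd4 (3752 ± 209.9). Mitochondrial genes held 5.09%, 4.94% and 5.10% of the counts. Some genes of the mitochondrial genome had few counts. Cytochrome c oxidase subunit II (mt-Co2) had 6.16, 5.63 and 9.56 CPM and mt-Co3 had 4.75, 2.85 and 3.89 CPM. The gene mt-Atp8 had 798, 631 and 365 CPM, highest in right 1037 and lowest in right 1039, while mt-Atp6, whose exon overlaps it, had 4.94, 3.97 and 3.75 CPM. How reads of overlapping genes and of near-identical copies were assigned is not stated, and its part in these values was not tested.

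Among nuclear genes, Ndrg4 (2310.4, 2424 and 2426 CPM), Atp1b1 (2228, 2324 and 2039 CPM), Snap25 (1997, 2034 and 1980.1 CPM) and Gad1 had the highest mean CPM. Atp1b1 is a subunit of the sodium pump, and Snap25 is part of the machinery that fuses synaptic vesicles. On the per-kb scale the nuclear genes at the top were Apoe, the lipid carrier made by astrocytes (874 ± 20.8), and Calm2, a calmodulin gene (749 ± 20.4). They were followed by Ptgds, a prostaglandin D synthase (742 ± 125), Atp1b1 (713 ± 46.9) and the translation factor Eef1a1 (703 ± 38.1). Sparcl1 (586 ± 13.9) and Glul (579.6 ± 19.4), both known from astrocytes, came next, ahead of Ndrg4, Cst3 and Psap (478 to 488). Calm2, Atp1b1 and Eef1a1 lay within the range of Ptgds over the 3 libraries, so they could not be ordered against Ptgds. The ranges of Calm2, Atp1b1 and Eef1a1 also overlapped each other. Calm2 was above Eef1a1 in each library, though only by 744.2 against 743.9 in right 1038. By longest transcript Eef1a1 (978) was above Calm2 (912). With the longest transcript as length, 9 of these 10 nuclear genes remained in the first 10.

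Mitral and tufted cells, the output neurons, were covered by 11 listed genes, all of them at 10 CPM or more in all 3 libraries (45.7% of all genes). Their summed level was 2480.2, 2587 and 2518 CPM, which differed by 2.15% (CV) between mice. Slc17a7, the vesicular glutamate transporter VGLUT1, had 571, 618 and 569 CPM, and Slc17a6, which encodes VGLUT2, had 40.5, 38.4 and 40.1 CPM. Their levels per kb of exon were 109 ± 5.09 and 7.35 ± 0.203. Reln, the secreted glycoprotein reelin, had 556, 482 and 552 CPM, lowest in right 1038. The T-box factors Tbx21 and Tbr1 were lower than Eomes per kb of exon, at 17.1 ± 2.39 and 3.68 ± 0.185 against 47.8 ± 2.75. Tbx21 had 36.7, 42.5 and 48.6 CPM and was highest in right 1039. Doc2g had 87.6, 117 and 92.3 CPM, with right 1038 above the other mice. Shisa3 had 88.4, 95.4 and 104 CPM, and its exons overlap those of Atp8a1 on the opposite strand. Of 10 neighbouring pairs in the order per kb, 4 had overlapping ranges.

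GABAergic interneurons had 13 listed genes, again all at 10 CPM or more in all 3 libraries (45.7% of all genes). The sum was 4824, 5173 and 4877 CPM, highest in right 1038 (CV 3.80%). Gad2, the other GABA-synthesising enzyme, had 588, 587 and 557 CPM, and Slc32a1, the vesicular GABA transporter, had 144, 148 and 125 CPM. Among the transcription factors the highest per kb of exon were Meis2 (67.0 ± 4.25), Tshz1 (66.2 ± 0.650) and Dlx1 (61.1 ± 5.03), whose ranges overlapped. By longest transcript Meis2 was at 147, above Tshz1 (68.5) and Dlx1 (80.1). The other Dlx genes were lower per kb, with Dlx2 at 21.5 ± 2.45, Dlx5 at 19.0 ± 0.250 and Dlx6 at 15.3 ± 0.524. Tshz1, a zinc finger factor of maturing interneurons, had 386, 392 and 384 CPM, and Dlx5 had 43.5, 42.4 and 43.2 CPM, with a CV of 0.982% and 1.31%. Counting alone gives 1.31% and 3.92% on average, so these 3 libraries agree more closely than their depth can resolve. Dlx2 was lowest in right 1037, with 53.3, 66.4 and 64.0 CPM. Sp8 and Sp9, zinc finger factors of bulb interneurons, had 106, 111 and 111 CPM and 71.1, 73.4 and 79.9 CPM. Tpbg, a membrane protein of a granule cell subtype, had 29.6, 37.0 and 29.8 CPM.

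The periglomerular and dopaminergic list was detected in full, 10 of 10 genes (60.7% of all genes), while its members ranged widely. Calb2, which encodes calretinin of the largest periglomerular class, had 419, 438 and 478 CPM and 255 ± 17.2 CPM per kb. It was above Th per kb of exon in each mouse. The other genes of dopamine handling were far below Th per kb. Ddc, which makes dopamine from DOPA, had 6.80, 7.82 and 6.42 CPM, Slc6a3, the dopamine transporter, had 6.99, 9.27 and 7.30 CPM, and Slc18a2, the vesicular monoamine transporter, had 8.15, 7.68 and 8.12 CPM. Gch1, which makes the cofactor of Th, had 2.37, 1.99 and 2.59 CPM. On the scale of CPM per kb Th stood at 62.2 ± 6.73, Slc6a3 at 2.27 ± 0.358, Ddc at 1.57 ± 0.162, Slc18a2 at 1.53 ± 0.0497 and Gch1 at 0.371 ± 0.0491. The ranges of Ddc and Slc18a2 overlapped, and by longest transcript Ddc (3.47) was above Slc6a3 (2.27). Transcription factors known to act in dopaminergic cells were also present. Etv1 had 187, 214 and 186 CPM, Pax6 had 78.4, 74.3 and 76.6 CPM and Nr4a2 had 43.6, 30.2 and 37.7 CPM. Calb1, calbindin of another periglomerular class, had 14.8, 14.7 and 11.9 CPM and was below Calb2 per kb of exon, at 2.85 ± 0.332.

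Transcripts of sensory neurons, whose axons enter the bulb while their cell bodies lie in the nose, fell into distinct levels. Of 12 listed genes 8 reached 1 CPM in all 3 libraries (60.7% of all genes). S100a5 was highest per kb of exon (201 ± 43.0), ahead of Omp (56.3 ± 6.84) and Gng13, a G protein subunit (45.4 ± 4.55). In CPM, S100a5 had 108, 76.8 and 75.7, with right 1037 above the other mice. Gng13, whose exons overlap those of Chtf18, had 37.1, 31.0 and 37.1 CPM. Stoml3, a stomatin-like protein of the cilia, had 34.6, 32.5 and 28.7 CPM, and Adcy3, the adenylyl cyclase of odour transduction, had 43.6, 47.1 and 40.2 CPM. Adcy3 is also known from the primary cilia of brain neurons, and its exons overlap those of Cenpo. The subunits of the transduction channel were lower per kb of exon, at 0.735 ± 0.222 for Cnga2, 0.307 ± 0.0906 for Cnga4 and 0.345 ± 0.0372 for Cngb1. In the 3 libraries Cnga2, Cnga4 and Cngb1 had 1.73, 3.05 and 2.05 CPM, 0.577, 1.06 and 0.819 CPM and 2.95, 3.11 and 3.62 CPM. Rtp1, which helps odorant receptors to the membrane, had 0.577, 2.19 and 0.478 CPM, highest in right 1038. The list sum was 366, 323 and 298 CPM, highest in right 1037 and lowest in right 1039.

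The odorant receptors themselves were near the limit of detection. Of 1088 Olfr genes 863 had a count of 0 in all 3 libraries (20.9% of all genes), and 3 reached 1 CPM in all (60.7% of all genes). Summed over all Olfr genes, the level was 19.4 CPM (95% Wilson interval 17.4 to 21.7, counting error only) in right 1037. It was 19.8 CPM (17.7 to 22.2) in right 1038 and 19.6 CPM (17.5 to 22.0) in right 1039, so the sums did not differ beyond counting error. The 3 genes were Olfr287 (4.30, 3.05 and 3.55 CPM), Olfr613 (1.80, 1.66 and 1.98 CPM) and Olfr32 (1.60, 1.26 and 1.502 CPM), named after their values were seen. Odorant receptors form families of similar sequence, so the assignment of single counts is uncertain. Of 294 vomeronasal receptor genes 268 were at 0 in all 3 libraries and 2 reached 1 CPM in all, Vmn1r206 (3.34, 2.65 and 4.71 CPM) and Vmn2r1 (1.67, 1.66 and 1.502 CPM). None of 15 trace amine receptor genes reached 1 CPM in any library, and 11 were at 0 in all 3.

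Olfactory ensheathing cells, the glia that wrap the sensory axons, had 5 of 5 listed genes detected (60.7% of all genes). Fabp7, a fatty acid binding protein shared with astrocytes, had 354, 354 and 374 CPM. Frzb, a secreted Wnt antagonist, had 71.6, 77.5 and 85.6 CPM, and Sox10, a factor shared with oligodendrocytes, had 47.3, 45.9 and 50.5 CPM. Frzb was highest in right 1039. Ngfr, the neurotrophin receptor of these cells in culture and after injury, was low at 2.57, 3.31 and 3.41 CPM.

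All 10 astrocyte genes reached 10 CPM in all 3 libraries (45.7% of all genes), with a sum of 3036, 3290.3 and 3326 CPM. The glutamate transporters Slc1a2 and Slc1a3 had 879.7, 956 and 934 CPM and 817, 928 and 903 CPM. Aldoc, a glycolytic enzyme, led the list per kb of exon (161 ± 7.89), ahead of Slc1a3 (103 ± 6.78) and Slc1a2 (70.3 ± 3.00). By longest transcript Slc1a3 (199) was above Aldoc (189). Gfap, the filament protein of astrocytes, was highest in right 1039, with 221, 248 and 297 CPM, and Agt, angiotensinogen, was lowest in right 1037, with 12.3, 21.3 and 23.1 CPM. The water channel Aqp4 had 197, 199.9 and 201 CPM, a CV of 1.15%. Oligodendrocyte genes were more variable between mice, with a CV of the sum of 11.1%. The myelin genes Mbp and Mobp had 814, 703 and 959 CPM and 265, 194 and 267 CPM. Right 1038 was lowest for both. Olig1 and Olig2, the lineage factors, had 53.9, 52.2 and 56.0 CPM and 22.5, 22.3 and 24.8 CPM. Precursors of these cells were represented by Pdgfra (47.5, 50.2 and 49.8 CPM), a growth factor receptor, and by Gpr17 (51.2, 52.0 and 45.6 CPM), a receptor of committed precursors.

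Microglia, the resident immune cells, had 11 of 11 genes detected (60.7% of all genes) and 8 at 10 CPM in all 3 libraries (45.7%). The sum was 301, 284 and 306 CPM. Csf1r, the receptor for their survival factor, had 53.6, 54.7 and 57.0 CPM, and Cx3cr1, the fractalkine receptor, had 34.5, 31.4 and 30.5 CPM. Tmem119, a marker of resident microglia, had 18.2, 15.4 and 16.6 CPM. The complement genes C1qa, C1qb and C1qc had 33.0, 26.8 and 32.4 CPM, 19.1, 16.2 and 18.4 CPM and 16.5, 17.4 and 20.2 CPM. P2ry12 and Csf1r have exons that overlap a neighbouring gene, so their counts are uncertain. Trem2 had 6.41, 3.84 and 7.65 CPM, lowest in right 1038. Vessels were represented by Cldn5, a tight junction protein (31.2, 35.4 and 32.9 CPM), Flt1, a receptor for VEGF (87.7, 102 and 98.0 CPM), and Rgs5, a marker of pericytes (84.99, 105 and 91.7 CPM). Slco1a4, a transporter of the blood-brain barrier, was lowest in right 1038, with 65.7, 42.4 and 72.7 CPM.

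Blood markers were low. Haemoglobin Hbb-bs had 2.63, 1.85 and 6.28 CPM, and Hba-a1 had 1.73, 0.397 and 1.64 CPM. Hba-a2, a near-identical copy of Hba-a1, was at 0 in all 3 libraries, so the split between the copies is uncertain. The genes of the meningeal list were all detected (60.7% of all genes). Ptgds had 1405, 999 and 1268 CPM, Igf2 had 135, 122 and 148 CPM and Dcn, decorin, had 64.5, 55.2 and 67.4 CPM. All of these were lowest in right 1038, while the type I collagen genes of the same list were highest there.

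Neuroblasts had 6 of 6 genes at 10 CPM or more in all 3 libraries (45.7% of all genes). Dcx, doublecortin of migrating neuroblasts, had 393, 422 and 463 CPM, and Sox11, a factor of immature neurons, had 38.2, 40.9 and 42.3 CPM. Both were lowest in right 1037 and highest in right 1039. Prokr2, the receptor for a chemoattractant of the migratory stream, had 20.3, 33.1 and 29.2 CPM. Genes of dividing cells were near the detection level. Mki67 had 1.60, 2.12 and 1.91 CPM and Top2a had 1.99, 1.66 and 1.77 CPM, while Cdk1, Ccnb1 and Aurkb were under 1 CPM in each library.

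Markers of other brain regions were read as a check on the dissection of the bulb. None of 6 genes of cerebellar neurons reached 1 CPM in all 3 libraries, and their summed level was 2.24, 2.38 and 2.53 CPM. Gabra6, the receptor subunit of cerebellar granule cells, had 0.128, 0.265 and 0.614 CPM. Barhl1 was at 0 in all 3. None of 6 hypothalamic peptide genes reached 1 CPM in any library, and Avp was at 0 in all 3. Of 6 genes of cortical projection neurons, 5 were detected (60.7% of all genes). Most of that sum came from Cux2, which had 92.4, 103 and 92.0 CPM, and Rorb, which had 18.5, 13.1 and 14.5 CPM. Neurod6 had 3.08, 4.44 and 3.41 CPM. All 5 genes of striatal projection neurons were detected. Ppp1r1b, a phosphatase regulator, had 23.3, 22.4 and 25.2 CPM, Drd1 had 4.62, 5.23 and 5.26 CPM and Adora2a had 3.91, 5.10 and 5.39 CPM. Whether these transcripts came from bulb cells or from adjoining forebrain was not tested. Genes of ependyma and choroid plexus summed to 16.5, 18.2 and 19.3 CPM, and Folr1 of the choroid plexus was at 0.192, 0.0662 and 0.0683 CPM.

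The list of regional transcription factors held factors of the forebrain and of more posterior regions. The forebrain factor Lhx2 had 26.5, 23.2 and 28.9 CPM and Emx2 had 6.35, 5.56 and 6.55 CPM. Of 20 listed factors, 6 reached 1 CPM in all 3 libraries (60.7% of all genes), among them Lhx2, Emx2 and Pax6. The factors of more posterior regions were at or near 0. Of the 6 Hox genes listed, 5 were at 0 in all 3 libraries (20.9% of all genes) and Hoxb2 had 0, 0 and 0.0683 CPM. Pax2 and Pax5, factors of the midbrain-hindbrain boundary, were at 0 in all 3 libraries, and En1 had 0, 0 and 0.0683 CPM.

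**Figure D2:**
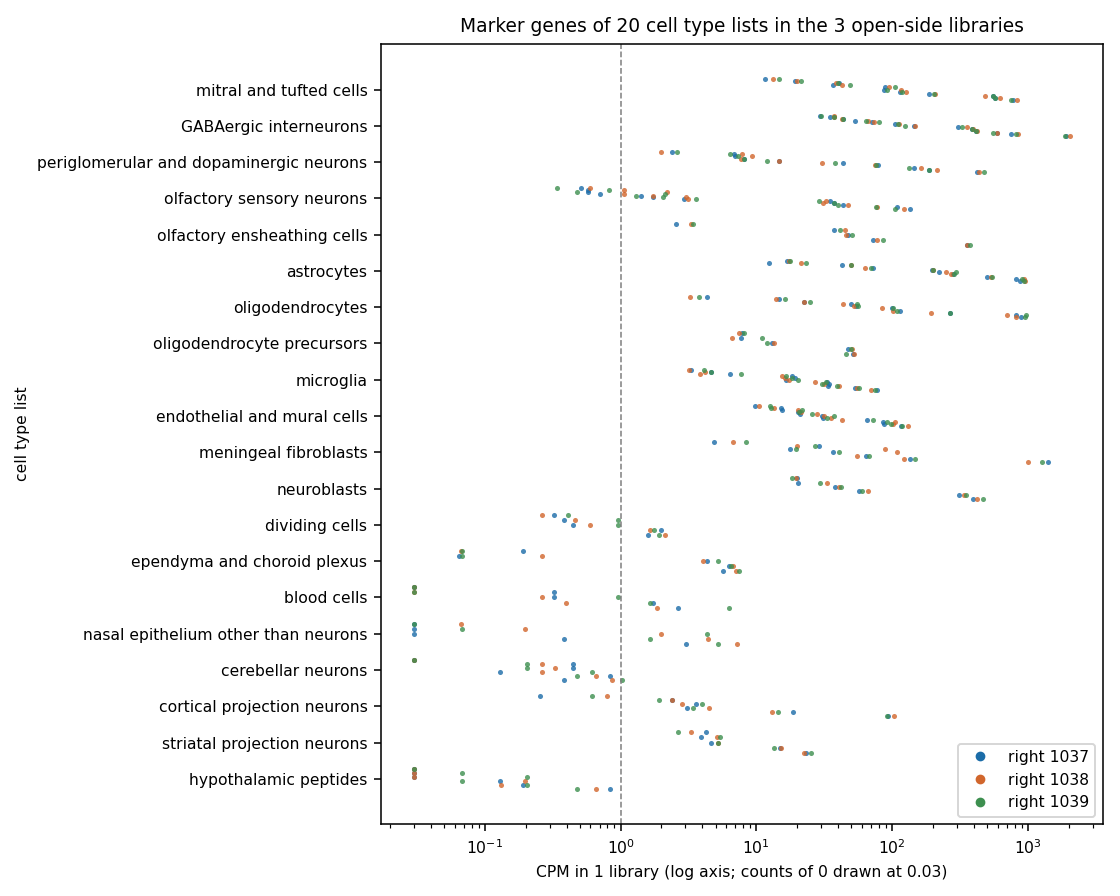
CPM of each listed marker gene (horizontal log axis) for the 20 cell type lists (vertical axis), 1 point per gene and library, with the 3 open-side libraries in 3 colours, counts of 0 drawn at 0.03 and a dashed line at 1 CPM. Mitral and tufted cell, interneuron and astrocyte genes lie to the right of 10 CPM, and the hypothalamic peptide genes lie to the left of 1 CPM.

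GABA-A receptors are chloride channels built of several subunits and carry most fast inhibition in the bulb. Of 16 subunit genes 13 reached 1 CPM in all 3 libraries (60.7% of all genes). Per kb of exon Gabra3 (50.9 ± 1.07) was above Gabra5 (39.6 ± 7.51) in each library, and Gabra5 was above Gabrb2 (27.5 ± 3.66). The ranges of Gabrb2 and Gabra2 (23.7 ± 0.385) overlapped. In CPM, Gabra5 had 107, 143 and 102, highest in right 1038 and lowest in right 1039. Gabra2 and Gabra3 varied less, with 178, 182 and 184 CPM and 197, 197 and 204 CPM. Gabrd, the delta subunit of extrasynaptic receptors, had 31.8, 27.8 and 25.7 CPM. Gabra4 and Gabrb1 have exons that overlap each other on opposite strands, so their counts are uncertain. Gabre was at 0.962, 1.32 and 0.887 CPM. Gabra6 and Gabrp were under 1 CPM in each library.

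Ionotropic glutamate receptors, which carry fast excitation, had 17 of 18 genes detected (60.7% of all genes). Their sum was 3824, 3846 and 3921 CPM (CV 1.32%). Among the AMPA receptor genes, per kb of exon, Gria1 (111 ± 3.96) was above Gria2 (67.7 ± 2.24), Gria4 (46.6 ± 0.513) and Gria3 (19.0 ± 0.741). In CPM, Gria1 had 643, 677 and 689 and Gria2, which sets calcium permeability, had 1074, 1012 and 1071. Grin1, the obligatory subunit of NMDA receptors, stood at 51.2 ± 1.53 CPM per kb, below Gria2 and above Gria4 in each library. By longest transcript Grin1 (116) was above Gria2 (101) and close to Gria1 (121), so the order of these 3 genes depends on the length. Among the regulatory NMDA subunits the order per kb was Grin2c (15.4 ± 0.764), Grin2b (10.6 ± 0.518), Grin2a (6.24 ± 0.727) and Grin2d (4.04 ± 0.302). Grin2c had 77.4 ± 3.85 CPM and Grin2a had 127, 104 and 105 CPM. Grin3a, an unusual subunit that lowers calcium flow, had 71.3, 91.1 and 73.2 CPM, highest in right 1038. Kainate receptors were led by Grik5 (32.8 ± 1.43 CPM per kb) and Grik3 (25.7 ± 1.87), with Grik4 lowest (0.781 ± 0.213). Grin3b was under 1 CPM in each library.

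Metabotropic glutamate receptors signal through G proteins, and 7 of 8 were detected (60.7% of all genes). Grm4 stood at 19.6 ± 1.44 CPM per kb, above Grm5 (14.5 ± 0.665) and Grm2 (14.5 ± 0.383) in each library. Over the detected genes of the list, 4 of 6 neighbouring pairs kept their order with the longest transcript as length. Grm2 is known from granule cells, and its range overlapped that of Grm5. In CPM, Grm4 had 108, 124 and 121, Grm2 had 68.8, 72.2 and 71.7 and Grm5 had 153, 141 and 152. The sum differed by 1.25% between mice. Grm6, the receptor of retinal bipolar cells, was at 0 in all 3 libraries.

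**Figure D3:**
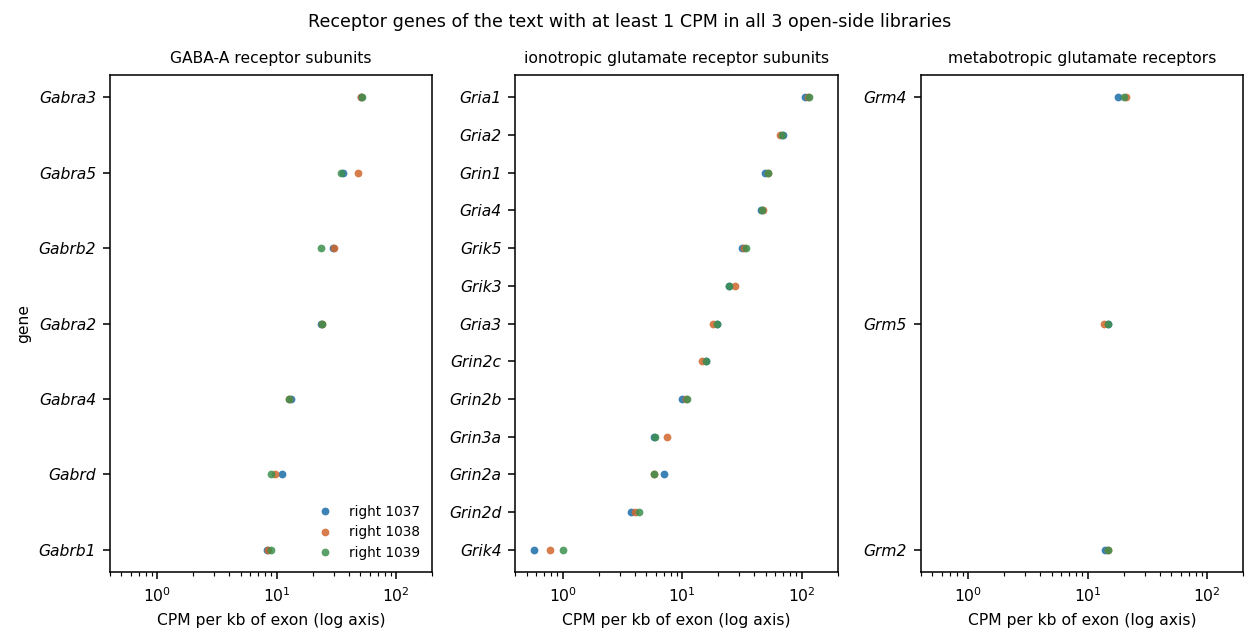
CPM per kb of exon (horizontal log axis) of the receptor genes described in the text (vertical axis) with at least 1 CPM in all 3 open-side libraries, in 3 panels for GABA-A, ionotropic and metabotropic glutamate receptors, 1 point per library. Gria1 is highest in its panel in each library, while the ranges of Gabrb2 and Gabra2 overlap.

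Neuropeptide and secretory granule genes had 24 of 26 members detected (60.7% of all genes). Granins, the matrix proteins of secretory granules, led per kb of exon, with Scg2 at 324 ± 47.8 and Scg5 at 240.2 ± 6.74. Scg2 had 952, 773 and 723 CPM, highest in right 1037. Of the peptide precursors, Npy (177 ± 22.6 CPM per kb), Penk, the enkephalin precursor (118 ± 6.80), Trh, the thyrotropin-releasing hormone precursor (73.7, 98.2 and 68.1 in the 3 libraries), and Cck, the cholecystokinin precursor of tufted cells (74.7 ± 7.17), were highest. The ranges of Npy and Chgb (151 ± 3.21), and of Trh and Cck, overlapped. Npy had 86.3, 111 and 103 CPM and Penk had 187, 206 and 185 CPM. Trh had 102, 136 and 94.3 CPM, with right 1038 highest, and Cck had 107, 96.5 and 88.6 CPM. Vip, Crh and Sst were lower per kb of exon, at 6.46 ± 0.298, 10.7 ± 1.69 and 7.96 ± 2.29. Vip had 21.0, 22.0 and 23.0 CPM, Crh, a peptide of interneurons in the bulb, had 16.2, 14.5 and 11.8 CPM and Sst had 4.75, 4.84 and 7.65 CPM. Pdyn and Tac1 had 2.37, 2.38 and 1.502 CPM and 5.26, 2.85 and 3.41 CPM. Igf1, a growth factor of tufted cells, had 89.1, 91.4 and 85.2 CPM. Nmb overlaps Sec11a on the same strand, so its counts (36.0, 36.7 and 32.4 CPM) are uncertain. Pomc and Grp were under 1 CPM in each library.

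Of 35 receptor genes for acetylcholine, noradrenaline, serotonin and dopamine, 26 (74.3%) were detected, against 60.7% of all genes of the table. Among the muscarinic acetylcholine receptors Chrm2 had 127, 129 and 119 CPM, Chrm1 had 77.3, 81.4 and 76.9 CPM and Chrm4 had 23.5, 20.3 and 22.1 CPM. On the scale of CPM per kb of exon they stood at 20.7 ± 0.884, 12.1 ± 0.379 and 15.3 ± 1.09, so Chrm4 lay between the others there. Chrnb2, a nicotinic subunit whose exons overlap those of Adar, had 76.3, 86.9 and 78.6 CPM. The alpha-1 adrenergic receptors Adra1a and Adra1d had 52.4, 44.3 and 43.2 CPM and 13.8, 10.5 and 11.9 CPM. Their ranges per kb of exon overlapped (5.34 ± 0.577 and 6.35 ± 0.862), and by longest transcript Adra1a (10.9) was above Adra1d (6.35). Serotonin receptors were represented by Htr2a (19.1, 17.5 and 16.8 CPM), Htr5a (14.5, 18.2 and 19.8 CPM), Htr7 (17.0, 18.1 and 12.9 CPM) and Htr1f (14.1, 11.9 and 13.2 CPM). Htr2c was uneven, with 4.94, 1.52 and 5.19 CPM, lowest in right 1038. The dopamine receptors were all at 5.26 CPM or less. Drd2, the receptor on sensory axon terminals, had 1.41, 1.72 and 1.71 CPM, and Drd3 and Drd4 were under 1 CPM in each library.

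Calcium-binding proteins were detected in full, 17 of 17 (60.7% of all genes). Their sum of 5256, 5226 and 5195 CPM varied least of the 30 lists of named genes (CV 0.586%). Single members varied more, and the 14 with a mean of 10 CPM or more had a median CV of 7.95%, against 5.45% over all genes at that level. The calmodulin genes Calm2 and Calm3, which encode the same protein, had 1132, 1092 and 1074 CPM and 757, 769.6 and 761 CPM. Among the neuronal calcium sensors, Hpcal4 had 506, 461 and 431 CPM, highest in right 1037. Necab1 and Necab2 had 142, 134 and 147 CPM and 65.4, 71.5 and 79.1 CPM. Nrgn, a calmodulin-binding protein of dendrites, had 103, 91.2 and 106 CPM. Pvalb, parvalbumin of interneurons in the external plexiform layer, had 3.01, 4.97 and 4.57 CPM. Per kb of exon Calb2 stood at 255 ± 17.2, Pvalb at 4.02 ± 0.992 and Calb1 at 2.85 ± 0.332, and the ranges of Pvalb and Calb1 overlapped.

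Immediate early genes rise within minutes of neuronal activity, and all 18 listed genes were detected (60.7% of all genes). They varied more than most genes. At a mean of 10 CPM or more their median CV was 18.1% (17 genes), against 5.45% over all 10365 genes at that level. Egr1 had 233, 224 and 289.6 CPM, Arc had 164, 161 and 201 CPM and Fos had 61.3, 56.6 and 72.9 CPM, with right 1039 highest and right 1038 lowest for each. Junb, whose exons overlap those of Prdx2, had 45.6, 42.7 and 61.3 CPM, in the same order. Other members had another order. Homer1 had 286, 195 and 183 CPM, Fosl2 had 219, 129 and 138 CPM and Nr4a3 had 74.0, 33.7 and 37.5 CPM, each highest in right 1037. Npas4, a factor that responds to calcium entry in neurons, had 48.7, 71.7 and 74.9 CPM, lowest in right 1037. Nr4a1 had 170.4, 123 and 171 CPM and Egr3 had 61.9, 41.4 and 51.9 CPM, both lowest in right 1038. Bdnf, the neurotrophin, had 10.8, 10.8 and 10.2 CPM. Highest per kb of exon were Arc (57.3 ± 7.20) and Egr1 (55.5 ± 7.97), whose ranges overlapped.

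Genes often used as references for RNA amounts, 10 in all, had a median CV of 4.56% and a median level of 280 CPM. The median CV was 5.45% over all genes with a mean of 10 CPM or more. It was 3.84% over the detected genes from 100 to 1000 CPM. Gapdh had 1293, 1411 and 1346 CPM, Actb had 568, 607 and 625 CPM and Hprt had 99.7, 101 and 95.7 CPM. The tubulin gene Tubb5 had 302, 303 and 303 CPM, a CV of 0.165%, below the 1.48% that counting alone gives on average. Cytosolic ribosomal proteins summed to 10687, 11212 and 10555 CPM over 86 genes, of which 80 were detected (60.7% of all genes). Many have near-identical copies, so single ribosomal protein genes are uncertain.

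In each range of level the median CV over the 3 mice was above the median CV that counting alone gives on average. The factor between them was largest at 1000 CPM or more. The median of CVs from 3 libraries tends to lie below such an average, so the gap understates the spread beyond counting. From 1 to 10 CPM the median CV of 3051 genes was 14.9%, where the counting CV had a median of 12.2%. From 10 to 100 CPM it was 6.19% against 4.39% (7792 genes), and from 100 to 1000 CPM it was 3.84% against 1.99% (2525 genes). For 45 genes at 1000 CPM or more it was 4.26% against 0.700%. The common biological coefficient of variation, the spread beyond counting that edgeR estimates from all 13413 detected genes, was 7.17%.

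**Figure D4:**
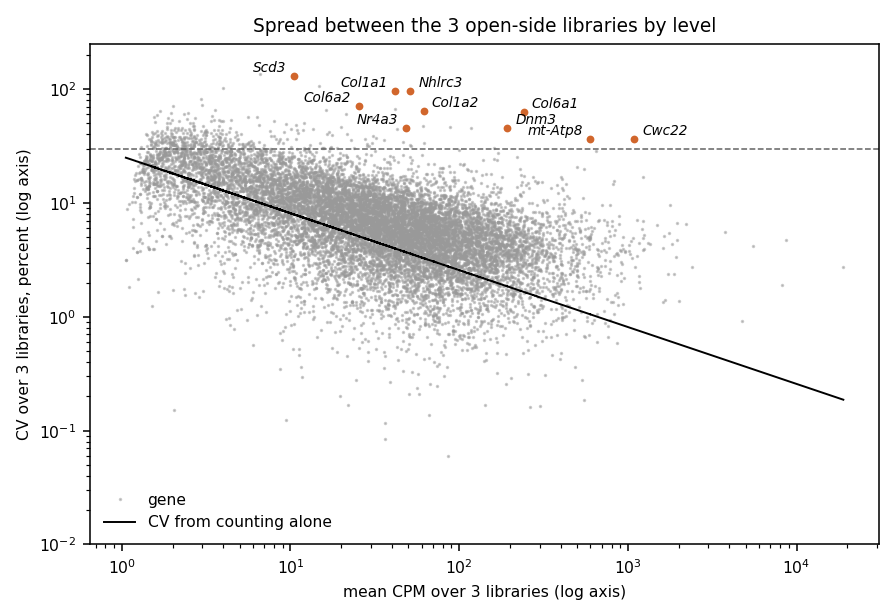
Coefficient of variation over the 3 open-side libraries in percent (vertical log axis) against mean CPM (horizontal log axis) for the detected genes, 1 point per gene, with the CV from counting alone as a black line and 30% as a dashed line. The 10 genes named lie above 30%, and Cwc22 is the gene above 1000 CPM that does.

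A CV over 30% at a mean of 10 CPM or more was found for 63 of 10365 genes (0.608%). Their highest library was right 1037 for 17, right 1038 for 23 and right 1039 for 23. One library stood over 2-fold above the next for 14 genes (0.135%), which were 1 gene in right 1037, 9 in right 1038 and 4 in right 1039. One stood over 2-fold below the next for 13 genes (0.125%), split as 6, 3 and 4. Bpifa1, Bpifa6, Bpifb9b and Scd3 were counted under both rules, above in right 1038 and below in right 1037. The genes set apart were thus 23 in all. Among genes at 1000 CPM or more, Cwc22, a splicing factor, had 1138, 669 and 1466 CPM, lowest in right 1038.

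In right 1038 the genes set apart included collagens and secreted proteins. Col1a1 and Col1a2, the chains of type I collagen, had 17.8, 88.2 and 19.6 CPM and 36.8, 108 and 40.9 CPM. Col6a1 and Col6a2, chains of type VI collagen, had 133, 416 and 174 CPM and 13.9, 46.2 and 16.0 CPM. Without right 1038 the means of Col1a1, Col1a2, Col6a1 and Col6a2 were 18.7, 38.8, 153 and 14.9 CPM in place of 41.8, 61.8, 241 and 25.4. Other collagens, looked up after these values were seen, differed less between the libraries. Col3a1 had 13.2, 16.4 and 14.0 CPM, Col4a1 had 83.0, 94.0 and 90.8 CPM and Col5a2 had 51.1, 61.7 and 57.3 CPM. Ptgds, Igf2 and Dcn of the meningeal list were lowest in right 1038, as given above, and so were the myelin genes Mbp and Mobp. Bpifa1, Bpifa6 and Bpifb9b belong to a family whose members are secreted in the nose and mouth. They had 3.59, 32.9 and 7.92 CPM, 0, 47.5 and 0.819 CPM and 0.449, 60.8 and 8.19 CPM. Without right 1038 their means were 5.75, 0.410 and 4.32 CPM in place of 14.8, 16.1 and 23.2. Scd3, a fatty acid desaturase known from glands of the skin and orbit, had 1.67, 26.6 and 3.41 CPM and Cyp1b1 had 8.66, 18.9 and 8.26 CPM, while the related brain desaturase Scd2 had 1820.2, 2077 and 1936 CPM. The mean of Scd3 without right 1038 was 2.54 CPM in place of 10.5.

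Genes of bone and of nasal tissue were then read in the same 3 libraries, and they were chosen after these values were seen unless in the list of nasal epithelium. Ibsp, bone sialoprotein, had 0.192, 6.62 and 0.410 CPM, and Dmp1, a matrix protein of bone and teeth, had 1.86, 5.50 and 1.64 CPM, both highest in right 1038. Of 5 listed genes of nasal epithelium other than neurons, 1 reached 1 CPM in all 3 libraries (60.7% of all genes). That was Cyp2a5, a cytochrome P450, with 3.01, 7.15 and 5.19 CPM, and Cyp2g1 had 0.385, 4.37 and 1.64 CPM. Krt5 and Krt14, keratins of basal cells, were at 0.199 CPM or less. Obp1a, an odorant-binding protein, had 0, 1.99 and 4.30 CPM. The list summed to 3.40, 13.8 and 11.2 CPM and was lowest in right 1037. Of the 5 genes, Obp1a was highest in right 1039 and the other 4 in right 1038, Krt5 by a single count. The part of such tissue in the values of the collagens, Rtp1 and the other sensory neuron genes was not tested. Tpm3-rs7, a copy of a tropomyosin gene, was set apart in the other direction, with 18.0, 0.265 and 22.3 CPM. Counts between tropomyosin copies are uncertain.

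Right 1039 was set apart by single genes of varied function. Nhlrc3 had 21.5, 24.3 and 109 CPM, and its mean without right 1039 was 22.9 CPM in place of 51.5. Gstp1, a glutathione transferase with a near copy in the genome, had 41.9, 47.0 and 95.2 CPM, and Akr1e1, an aldo-keto reductase, had 10.5, 9.80 and 28.7 CPM. The mean of Akr1e1 without right 1039 was 10.1 CPM in place of 16.3. Genes low in this library were Dnm3, a dynamin of synapses, with 239.8, 247 and 92.4 CPM, and Lars2, the mitochondrial leucyl-tRNA synthetase, with 143, 155 and 56.9 CPM. Mid1, an X-linked ubiquitin ligase, had 53.1, 61.7 and 9.56 CPM, and Nt5e, which makes adenosine outside the cell, had 29.4, 28.3 and 6.42 CPM. In right 1037 the ribosomal protein gene Rpl30 was over 2-fold above the others, with 135, 65.9 and 63.2 CPM, and Hexdc, which overlaps 2 other genes, was over 2-fold below them, with 9.36, 24.9 and 25.9 CPM. The mice were outbred, and the part of their genotypes in these values was not tested.

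**Figure D5:**
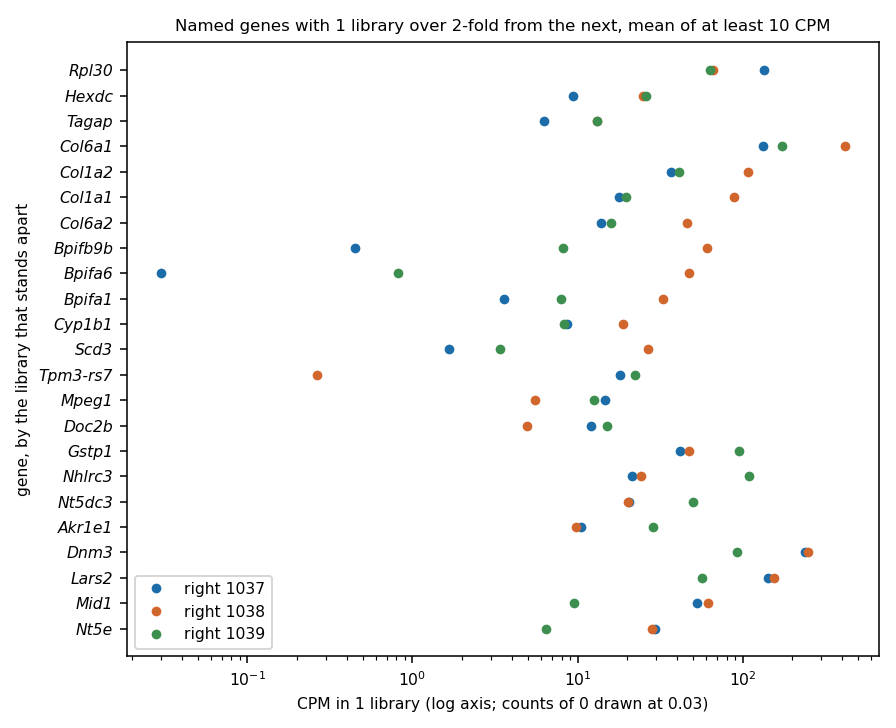
CPM in each open-side library (horizontal log axis, counts of 0 drawn at 0.03) of the 23 named genes (vertical axis) with 1 library over 2-fold from the next at a mean of at least 10 CPM, 1 point per library. Genes are ordered by the library that stands apart, and the points of right 1038 lie to the right for 9 genes, among them 4 collagen and 3 Bpif genes.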

How the data were processed

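Polyadenylated RNA from the right bulb of 3 mice was analysed, 1 library per mouse, so that n is 3 separate animals. The deposited table holds counts of reads per gene and library, whole numbers and not normalized, per the file headers. The authors' RPKM values in the same table, per the file headers, rest on a gene length within 1 base of the genomic span for 78.4% of the annotated genes, so they were not used. The submitters' processing notes name the build GRCm38 and the tools TopHat2, cutadapt 1.2.1, DESeq 1.18.0 and HTSeq 0.6.1p2, without their roles. The sources used here do not give the use of strand or of reads with several positions. Of 329 genes of the named lists and the mitochondrial genome, 39 had exons that overlap another gene of the table. Among all 22095 genes of the table, 3600 had such an overlap. Atp1b1, Glul and Hexdc, which were ranked and are not in those lists, also overlap another gene.

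Of 22095 genes, 21929 were matched by identifier to GENCODE M21 (GRCm38), which gave symbols, coordinates and the union of exons. CPM, SD, CV and counting CV were computed in Python 3.11.15 with pandas 2.3.3. The counting CV is 100 over the square root of the mean count. The common biological coefficient of variation came from edgeR 4.0.16 in R 4.3.3 with TMM factors and an intercept only. The estimate was also run on simulated data with a spread set above the one found here, so its accuracy at this level was not tested. No group was compared and no p-value was computed. Overlap of ranges was read from the lowest and highest library. Totals of 14649911 to 15590938 counts set the precision.

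Named genes were the 6 markers, the 10 highest by CPM and by CPM per kb, the 10 with the highest CV at a mean of 10 CPM or more, and members of the lists. Genes with no proper name (Gm or Rik symbols) were counted only. Some listed genes are in the counts and sums and are not reported singly here. Other collagens, Scd2, Cwc22, the bone genes, single Olfr and Vmn genes, further genes set apart in 1 library and the secreted proteins of the closing section were named after their values were seen. The markers, lists and rules were chosen with earlier results of these data known. A comparison of promoters between detected genes and others was planned and left out, because 74.5% of the genes matched a promoter, under the 80% required.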

Additional observations from a re-analysis of the deposited data

How the results depend on the processing

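The number of detected genes was 13413 by library totals, TMM and RLE factors alike. It was 14878 with at least 3 counts in all 3 libraries and 13766 with a mean of 1 CPM. With 1 mouse left out at a time, it was 13477 to 13543, the median level of detected genes was 32.3 to 32.5 CPM, the share of counts in the 100 highest genes was 15.1% to 15.2%, and 259 to 262 listed genes were detected. Leaving the 10 genes with the most counts out of the total raised the median from 32.4 to 34.4 CPM. Without mitochondrial genes the share of the 100 highest genes was 11.2% in place of 15.2%. The biological coefficient of variation was 7.17% with library totals only, 7.17% with RLE factors, 7.67% for all genes with a count, 6.47% for genes at 10 CPM in all 3 libraries, and 6.93% to 7.35% with 1 mouse left out.

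Levels per kb depend on the length. The median of detected genes was 6.98 CPM per kb of exon, 9.47 per kb of the longest transcript and 1.21 per kb of the deposited length. With the deposited length 3 of the 10 highest nuclear genes remained. The mean of a gene with 1 mouse left out cannot move by 1 SD with 3 mice, so it says nothing on stability. The promoter comparison and its alternative were not run. No paired analysis was possible because the levels described are of the right bulb alone and no groups were compared. With 3 mice a level is known to about the spread given, and counting error is largest for genes under 10 CPM.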

Other observations

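The Y-linked genes Eif2s3y, Ddx3y, Uty and Kdm5d, which are found in males, were expressed in all 3 open-side libraries. Eif2s3y, a translation factor subunit, had 113, 98.6 and 116 CPM, and Ddx3y, an RNA helicase, had 103, 93.5 and 99.9 CPM. The demethylase genes Uty and Kdm5d had 69.5, 64.0 and 76.8 CPM and 65.2, 72.0 and 70.0 CPM. No library stood apart in these 4 genes. The X-inactivation gene of the list, Xist, was not found among the genes of the table, so it has no value here.

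Of the secreted carrier proteins of the nose and of glands, 5 genes were at 0 or near it in right 1037 and highest in right 1039. Obp1a is in the list of nasal epithelium, and the other 4 were picked after their values were seen, so this is no statement on such proteins in general. The odorant-binding protein genes Obp1a, Obp1b and Obp2a had 0, 1.99 and 4.30 CPM, 0, 1.72 and 4.37 CPM and 0, 1.79 and 9.62 CPM. The major urinary protein genes Mup4 and Mup5, whose products carry pheromones, had 0.128, 1.59 and 7.99 CPM and 0, 1.26 and 5.46 CPM. The Bpif genes and Wfdc18, a secreted protein with 0.192, 5.23 and 1.91 CPM, were highest in right 1038. Mup genes have near-identical copies, so the count of each is uncertain.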
